A study of Mus musculus with 4 samples.

Results

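The T cell receptor complex genes are 8 genes that encode the constant parts of the antigen receptor of T cells and of its signaling chains: Cd3d, Cd3e, Cd3g, Cd247, Trac, Trbc1, Trbc2 and Trdc. They were taken by gene symbol from the 33696 genes of the count tables, and all 8 were found and had counts in every library. Of the cells kept for analysis, 4308 of 29076 in the SAR131675 library held at least 1 count of any of them, as did 3338 of 24030 in the control diet library, 1883 of 19827 in the lymph node removal (LNR) library and 2116 of 20669 in the sham library. Counts are UMIs (unique molecular identifiers, 1 for each captured RNA molecule), and levels (CPM) are UMIs of a gene per 1000000 UMIs summed over the cells of a set.

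A T cell recognizes antigen with a pair of variable chains, alpha with beta or gamma with delta. Each variable chain is a rearranged variable segment joined to a constant region, and the pair reaches the cell surface only together with the CD3 gamma, delta and epsilon chains and the zeta chain. The CD3 and zeta chains carry the tyrosine motifs that start signaling. In mouse skin, gamma delta T cells live within the epidermis and the dermis, and natural killer (NK) cells and innate lymphoid cells share many T cell genes without making a rearranged receptor.

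The study examined how lymphatic function bears on regeneration of the amputated mouse digit tip, and these were its 4 single-cell libraries of the digit, labelled P3 for the terminal phalanx. Per the methods, hind digits 2 to 4 were collected by a cut near the base of the second phalanx, so skin, bone and soft tissue behind P3 are included. All came from female C57BL/6 mice aged 6 to 8 weeks, with the digits of 10 mice pooled in each library. In the SAR131675 group, mice ate chow with SAR131675, an inhibitor of the lymphatic growth factor receptor VEGFR3, at 30 mg/kg for 8 days. The control diet group ate chow without it. The 8 days are from the labels, while the methods have the SAR131675 chow begin before amputation and continue through the study. In the LNR group the inguinal and popliteal lymph nodes of one hind limb had been removed, and the study took the opposite limb as sham. The sham library is titled a control in the labels, with no treatment as its treatment value, and the series design calls it sham. The methods state that the tip of P3 was amputated on digits 2 and 4, so the digit between them may have been collected without an amputation. There was 1 library per condition and each library carried its own batch number, so treatment, batch and library cannot be told apart, and no test across samples was possible. Every interval below is a 95% counting interval that treats UMIs or cells as independent and says nothing about variation between mice.

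Depth differed between the 2 experiments but little within each. Kept cells held a median of 11316 UMIs with SAR131675, 10712 with control diet, 5725 after LNR and 5851 in the sham library. The matrix headers name Cell Ranger 8.0.1 for the diet libraries and 6.1.2 for the other pair, although the submitters' notes give 6.1.2 for all, and later versions count intronic reads by default. Levels are therefore compared within a pair. The exceptions below, which span both pairs, include the correlations over clusters, the UMIs per cell of Cd247 and Cd3d and a contrast of Krt1 between clusters. They also include UMIs of immunoglobulin genes in T/NK-like cells and of Trdc in clusters led by genes of bone-forming cells. Cells were clustered without the 8 genes and without any receptor segment, and clusters were named from other markers. A cluster named T/NK-like, from genes such as Skap1, Il7r and Nkg7, held 243, 166, 232 and 214 cells in the SAR131675, control diet, LNR and sham libraries, which is the order of the libraries used in every list of 4 values below. Within each pair, kept barcodes shared by both libraries numbered 210 and 101, with 1 of them in the T/NK-like cluster of each library.

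The first sequences shown are the 250 bases before the annotated starts of the 3 CD3 genes and of Cd247, because their RNA was found together in T/NK-like cells. Cd3g and Cd3d lie head to head on mouse chromosome 9, with starts 1355 bases apart and pointing away from each other, and Cd3e starts 27825 bases from Cd3d. Cd247 lies on chromosome 1. The windows are chr9:44980432-44980681 on the minus strand for Cd3g, chr9:44981536-44981785 on the plus strand for Cd3d, chr9:45009612-45009861 on the minus strand for Cd3e and chr1:165788431-165788680 on the plus strand for Cd247, all from RefSeq on GRCm38.p6 (the count tables use GRCm39). Capitals mark GGAA or its reverse complement TTCC, the core letters bound by ETS family factors.
Cd3g: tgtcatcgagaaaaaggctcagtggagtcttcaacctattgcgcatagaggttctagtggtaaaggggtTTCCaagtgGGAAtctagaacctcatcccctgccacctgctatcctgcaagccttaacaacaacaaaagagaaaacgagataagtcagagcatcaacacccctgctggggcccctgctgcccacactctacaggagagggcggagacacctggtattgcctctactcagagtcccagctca
Cd3d: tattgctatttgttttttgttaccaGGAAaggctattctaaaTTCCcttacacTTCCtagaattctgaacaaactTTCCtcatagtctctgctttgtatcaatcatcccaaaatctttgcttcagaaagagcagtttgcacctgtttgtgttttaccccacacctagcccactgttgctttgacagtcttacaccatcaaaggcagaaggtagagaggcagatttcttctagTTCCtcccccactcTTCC
Cd3e: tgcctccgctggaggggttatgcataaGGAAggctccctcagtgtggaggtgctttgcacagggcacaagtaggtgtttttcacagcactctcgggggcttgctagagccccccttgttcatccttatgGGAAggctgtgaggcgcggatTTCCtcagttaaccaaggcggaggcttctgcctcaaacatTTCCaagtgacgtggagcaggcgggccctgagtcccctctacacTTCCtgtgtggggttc
Cd247: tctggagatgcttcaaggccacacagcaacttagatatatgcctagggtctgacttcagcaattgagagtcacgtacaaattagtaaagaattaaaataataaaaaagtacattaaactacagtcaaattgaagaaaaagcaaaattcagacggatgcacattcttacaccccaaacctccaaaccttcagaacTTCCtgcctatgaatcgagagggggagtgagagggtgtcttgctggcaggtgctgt
The letters were found 6 times before Cd3d, 5 times before Cd3e, 2 times before Cd3g and 1 time before Cd247, but 93.4% of 32851 promoters of this length held at least 1 match. TGTGGT or ACCACA (14% of promoters) and TATAAA or TTTATA (12.4%) were in none of the 4 windows, and GATAA or TTATC (22.6%) was found 1 time, before Cd3g. The motifs were searched on both strands and can overlap each other.

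The second pair of sequences are the coding parts of exon 3 of Trbc1 and Trbc2, the 2 constant genes of the beta chain, shown because the counts below depend on telling them apart. They lie on chromosome 6, at chr6:41539229-41539335 and chr6:41547772-41547878, both on the plus strand (GENCODE M21, GRCm38). Capitals mark the 15 of 107 positions that differ.
Trbc1: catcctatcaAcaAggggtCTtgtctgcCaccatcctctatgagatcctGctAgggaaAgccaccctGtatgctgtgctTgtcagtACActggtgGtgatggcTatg
Trbc2: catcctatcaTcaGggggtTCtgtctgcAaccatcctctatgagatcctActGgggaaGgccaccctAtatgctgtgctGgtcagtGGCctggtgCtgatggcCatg
Across the whole coding sequence the genes were 95.6% identical, and exon 1 differed at 1 base (99.7%). The last 150 bases of the transcripts, from which 3' libraries draw most reads, were 60% identical. The tables do not show how reads that matched both genes were treated, or whether they were counted. The division between Trbc1 and Trbc2 and their sum are therefore both uncertain.

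CD3 chains. Cd3d, Cd3e and Cd3g encode the delta, epsilon and gamma chains of CD3, and their RNA lay almost wholly in T/NK-like cells. Cd3e had 675, 539, 467 and 536 UMIs in the 4 libraries, or 1.99, 2.03, 3.27 and 3.56 CPM over all kept cells, and 96.4%, 90.7%, 88.7% and 94.0% of these UMIs were in the T/NK-like cluster. Cd3g had 1153, 804, 773 and 894 UMIs, of which 95.7%, 95.5%, 90.9% and 94.5% were there. Cd3d had 288, 181, 350 and 397, of which 93.8%, 97.8%, 87.7% and 94.5% were there. Neither the genes nor any receptor segment had been used to form or name the cluster.

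Few cells carried these chains. At least 1 UMI of the 3 CD3 genes was found in 200, 140, 195 and 201 kept cells, or 0.688% (0.596 to 0.790), 0.583% (0.490 to 0.687), 0.984% (0.851 to 1.13) and 0.972% (0.843 to 1.12). The intervals of the libraries in each pair overlapped. Of these cells, 70.5%, 70.7%, 67.7% and 69.7% were T/NK-like. In the keratinocyte-like class, which should lack CD3, 0.205%, 0.178%, 0.227% and 0.265% of cells had a CD3 UMI, at a median depth of 12647, 12210, 8190 and 7864 UMIs. In T/NK-like cells the share was 58.0%, 59.6%, 56.9% and 65.4%, at a median depth of 5705, 5561, 2290 and 2197.

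Within T/NK-like cells the 3 CD3 genes were found together. Among cells with a Cd3e UMI, 94.4%, 93.2%, 83.8% and 94.5% also had Cd3g, against 21.5%, 26.1%, 18.9% and 23.1% of those without Cd3e. Cd3d was found in 80.6%, 67.6%, 80.0% and 84.5% of cells with Cd3e and in 5.93%, 8.70%, 11.8% and 14.4% of the others. The sets with and without Cd3e had close median depths, from 2300 against 2244 UMIs after LNR to 5802 against 5230 with control diet. All 3 genes were found in 83, 48, 72 and 89 T/NK-like cells.

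Zeta chain. Cd247 encodes CD3 zeta, which also signals for receptors of NK cells. Its level over all kept cells was 2.63, 2.43, 1.09 and 1.13 CPM, and 85.9%, 80.2%, 56.4% and 60% of its UMIs were in T/NK-like cells. Cells with the gene held a mean of 3.77 and 3.18 UMIs in the diet pair and 1.36 and 1.30 in the LNR pair. Cd3d gave 2.64 and 2.92 in the diet pair and 2.69 and 3.13 in the LNR pair. The part played by the difference in software was not tested. Among cells with Cd3e, Cd247 was found in 84.3%, 89.2%, 41.9% and 56.4%.

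Cd247 had a second, weak site in blood vessel lining. In the endothelial-like class, 32 of 791, 41 of 671, 17 of 763 and 23 of 817 cells had a Cd247 UMI, at 4.98 CPM (3.51 to 6.86), 10.2 (7.69 to 13.3), 4.76 (2.91 to 7.36) and 5.89 (3.81 to 8.70). In the control diet library the neutrophil-like class was higher, at 17.0 CPM from 8 UMIs in 3 cells. Lymphatic endothelial cells (the LEC-like class) were at 3.07, 0, 0.707 and 2.30 CPM, on only 5, 0, 1 and 3 UMIs. The remaining cells outside the T/NK-like cluster, with both of these classes included, gave 0.269, 0.281, 0.348 and 0.295 CPM. The log2 difference between endothelial-like and these remaining cells was 4.21 (3.61 to 4.78), 5.18 (4.65 to 5.71), 3.77 (2.94 to 4.55) and 4.32 (3.55 to 5.06). The endothelial-like cells held no Cd3d, Cd3e or Cd3g UMI in 3 of the libraries and 30 after LNR, where 1 of the 17 cells with Cd247 also had CD3. After thinning each cell with at least 1500 UMIs to that number, which left out 1252, 1743, 1359 and 1475 kept cells and kept 234, 158, 188 and 162 T/NK-like cells, Cd247 was found in 0.684%, 1.21%, 0.559% and 0.678% of endothelial-like cells and in 0.0856%, 0.0418%, 0.0342% and 0.0219% of the rest.

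**Figure D1:**
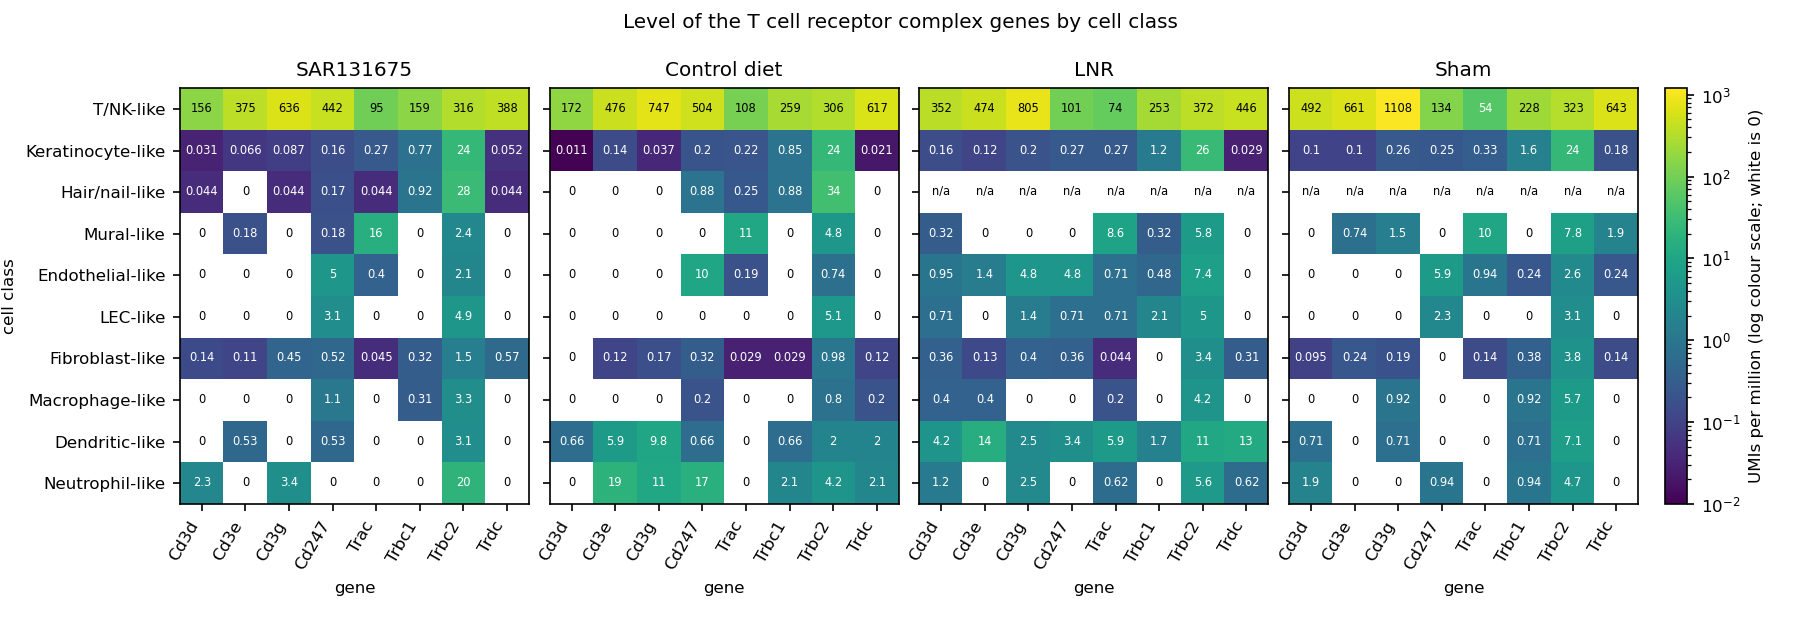
Each colored square gives the level of a gene (columns) in a cell class (rows) in CPM on a log color scale, in panels for the 4 libraries, with white for 0 and n/a where the class was not found. The T/NK-like row is highest for all 8 genes, and Trbc2 is the gene with values of 24 to 34 in the keratinocyte-like and hair/nail-like rows.

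Alpha and delta constant genes. Trac encodes the constant region of the alpha chain and Trdc that of the delta chain, so they mark the 2 kinds of receptor. In the T/NK-like cluster Trdc was found in 80 of 243 cells (32.9%, 27.0 to 39.2), 64 of 166 (38.6%, 31.1 to 46.4), 60 of 232 (25.9%, 20.4 to 32.0) and 79 of 214 (36.9%, 30.4 to 43.8). Trac was found in 62 (25.5%, 20.2 to 31.5), 38 (22.9%, 16.7 to 30.0), 38 (16.4%, 11.9 to 21.8) and 25 (11.7%, 7.70 to 16.8). Trdc was thus found in more cells than Trac in every library, with intervals that overlapped in the SAR131675 and LNR libraries. Both were found in 14, 9, 2 and 3 cells and neither in 115, 73, 136 and 113. Of the cells with neither, 24, 16, 38 and 42 had a CD3 UMI. At 1500 UMIs per cell, Trdc was found in 22.2%, 34.8%, 20.7% and 29.0% and Trac in 10.7%, 11.4%, 12.2% and 9.26%. Kept cells with Trac held a mean of at most 1.70 UMIs of it in any library, while those with Trdc held at least 5.37. Thinning does not make 2 genes equally likely to be detected, and the part of this in the order was not tested. The shares are therefore of cells with detected RNA and do not count the cells with each kind of receptor.

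**Figure D2:**
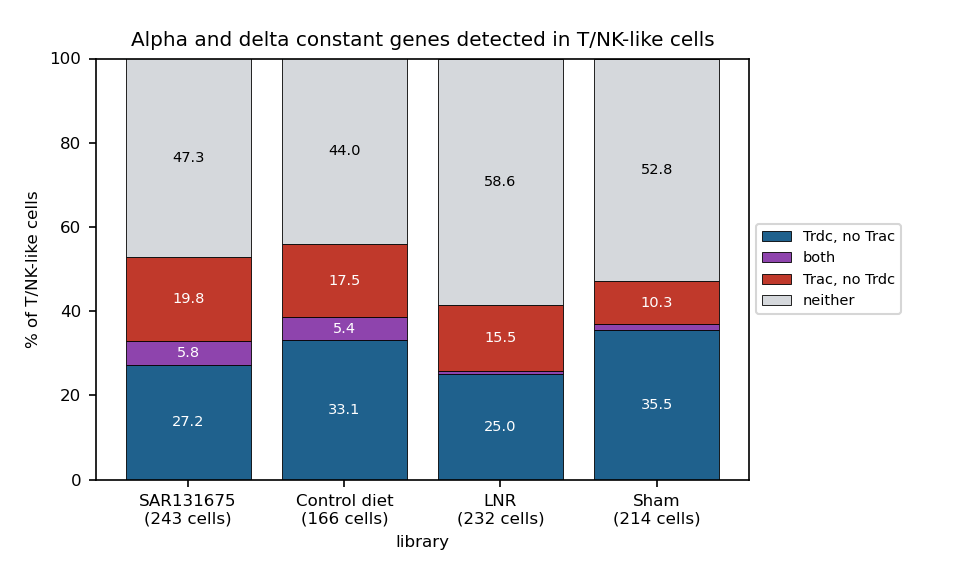
Stacked bars give the percent of T/NK-like cells of each library (cell numbers under the bars) with a UMI of Trdc without Trac, of both genes, of Trac without Trdc, or of neither. The Trdc segment is taller than the Trac segment in all 4 bars, at 25.0% to 35.5% against 10.3% to 19.8%.

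Cells with either chain nearly always carried CD3. A CD3 UMI was found in 92.5%, 90.6%, 96.7% and 97.5% of T/NK-like cells with Trdc and in 91.9%, 89.5%, 100% and 96.0% of those with Trac. The level of CD3 differed between the sets. Cd3g was at 1341 CPM (1245 to 1443), 1574 (1443 to 1714), 2038 (1867 to 2221) and 2621 (2431 to 2823) in cells with Trdc and no Trac. In cells with Trac and no Trdc it was at 385 (321 to 459), 414 (322 to 524), 689 (538 to 869) and 334 (224 to 479). The intervals did not overlap in any library. Cd3e showed the same order, at 751, 977, 1179 and 1500 against 250, 312, 466 and 230 CPM. Cd247 was at 874, 1039, 219 and 285 against 243, 252, 107 and 57.5, with intervals that overlapped only in the LNR library (165 to 284 against 53.3 to 191). Cd3d differed beyond its intervals only in the sham library, at 911 CPM (800 to 1033) against 495 (358 to 667), and was at 695 (597 to 805) against 708 (555 to 890) after LNR.

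Beta constant RNA was common in cells with the delta chain. Among T/NK-like cells with Trdc, 81.2%, 76.6%, 81.7% and 67.1% also had Trbc1 or Trbc2, compared with 83.9%, 89.5%, 86.8% and 100% of those with Trac. Trbc2 alone was found in 65.0%, 62.5%, 56.7% and 50.6% of cells with Trdc and in 65.0%, 69.6%, 48.8% and 50.4% of T/NK-like cells without it. Trbc1 was found in 56.2%, 48.4%, 55.0% and 49.4% of cells with Trdc and in 55.2%, 55.9%, 39.5% and 29.6% of those without it. Trbc1 or Trbc2 with no CD3 UMI was found in 80, 51, 48 and 33 T/NK-like cells.

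Variable segments, counted apart from the members, were mostly Trdv4 for the delta chain and Trgv2 for the gamma chain. Trdv4, a variable segment of the delta chain, had 371, 246, 155 and 260 UMIs, or 97.1%, 94.6%, 98.7% and 99.2% of all Trdv UMIs. Trgv2 had 81, 68, 37 and 46, or 62.8% to 68.7% of Trgv UMIs. Trgc1, a gamma constant gene, had 345, 233, 150 and 138. The 130 Trav genes had only 27, 17, 18 and 17 UMIs together and the 35 Trbv genes 22, 19, 12 and 7. These are 3' libraries, so most reads come from the constant end of a transcript. Trdv4 was also found in 24.3% of 148 T/NK-like cells of the diet pair and 10.7% of 169 of the LNR pair that had no Trac, Trdc or CD3 UMI.

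Genes outside the 8 members also differed between T/NK-like cells with Trdc only and with Trac only. Cells were pooled here over the libraries of each pair, 121 and 77 in the diet pair and 134 and 58 in the LNR pair. Trgc1 was found in 73.6% and 66.4% of Trdc cells and in 10.4% and 5.17% of Trac cells. Scart1, a scavenger receptor of gamma delta T cells, was found in 43.8% and 17.9% against 1.30% and 0%. Fcer1g, a signaling chain used by NK and some gamma delta receptors, was found in 35.5% and 66.4% against 7.79% and 6.90%. The costimulatory receptor Cd28 went the other way, at 9.09% and 3.73% of Trdc cells against 61.0% and 43.1% of Trac cells. The coreceptors Cd4 and Cd8b1 were found in 20.8% and 14.3% of Trac cells in the diet pair and in 10.3% and 17.2% in the LNR pair, and in at most 0.826% of Trdc cells. Foxp3, the regulatory T cell factor, was found in 10.4% and 12.1% of Trac cells and in none of the Trdc cells. Of the proximal signaling genes, Lat was found at close shares, 55.4% and 52.2% against 58.4% and 55.2%. Lck, which was among the genes used to name the cluster, was found in 32.2% and 18.7% of Trdc cells and in 62.3% and 37.9% of Trac cells.

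The T/NK-like cluster was itself mixed when clustered again. In the diet pair, 41 cells led by Olfm3 and Trat1 had Cd3g in 97.6%, Trdc in 90.2% and a summed level of the 8 genes of 12496 CPM with SAR131675 and 13023 with control diet, the highest of the 10 subclusters. Another 76 cells led by Scart1, Il23r and Blk had Cd3g in 94.7% and Trdc in 75.0%, at 4648 and 4681 CPM. In the LNR pair, 71 cells led by hemoglobin genes, Gzmc, Xcl1 and Cd7 had Cd3e in 100%, Trdc in 97.2% and Trdv4 in 87.3%, at 16916 CPM after LNR and 21191 in the sham library. Trac was most frequent in 33 cells of the diet pair led by hemoglobin genes, Gramd3 and Ly6c2 (72.7%, with Lef1 in 81.8% and Trbc2 in 93.9%), and in 25 cells of the LNR pair led by Tnfrsf4, Ctla4 and Foxp3 (60%). A group of 56 cells in the LNR pair, led by the antibody-cell gene Jchain and then by Ly6c2 and Gramd3, had Trac in 39.3% and Trbc2 in 76.8%. Immunoglobulin genes had 1630 UMIs in LNR and 8673 in sham T/NK-like cells, of which 3 cells in each library held 92.7% and 97.7%, against 61 and 45 in the diet pair.

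Other subclusters held beta constant RNA without CD3. In the diet pair, 76 cells led by Dach2, Dmxl2 and Pde7b had no Cd3d or Cd3e UMI and Cd3g in 14.5%, but Trbc1 in 67.1% and Trbc2 in 65.8%, with Gata3 in 88.2%. Subclusters led by Gzma and Klra genes, receptors of NK cells, had no CD3 UMI in 18 cells of the diet pair and 21 of the LNR pair. Trbc1 was found in 61.1% and 33.3% of them, Cd247 in 55.6% and 4.76% and Ncr1 in 61.1% and 52.4%. In the LNR pair, 24 cells led by the B cell genes Vpreb3 and Cd79a had 0 UMIs of 7 of the 8 genes and Trbc2 in 4.17%. No separate B cell-like cluster was found in that pair.

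Some T/NK-like cells carried RNA of other cell types. Subclusters led by keratin genes held 56 cells of the diet pair and 68 of the LNR pair, with Krt14 in 89.3% and 89.7%, and a median of 13982 and 8217 UMIs. Scrublet, which scores likely doublets, called 29 of the 38 SAR131675 cells and 1 of the 18 control diet cells of the first group, and 10 of 27 and 25 of 41 of the second. Subclusters led by Dcn and collagen genes, of fibroblasts, held 16 and 41 cells. In these groups the 8 genes summed to between 765 and 2899 CPM. A further 7 cells, all with SAR131675, were led by the endothelial genes Fabp4 and Flt1 and had no CD3 UMI. Levels of the members in T/NK-like cells, and calls for other genes, are compared below with and without these subclusters and the Vpreb3-led one.

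**Figure D3:**
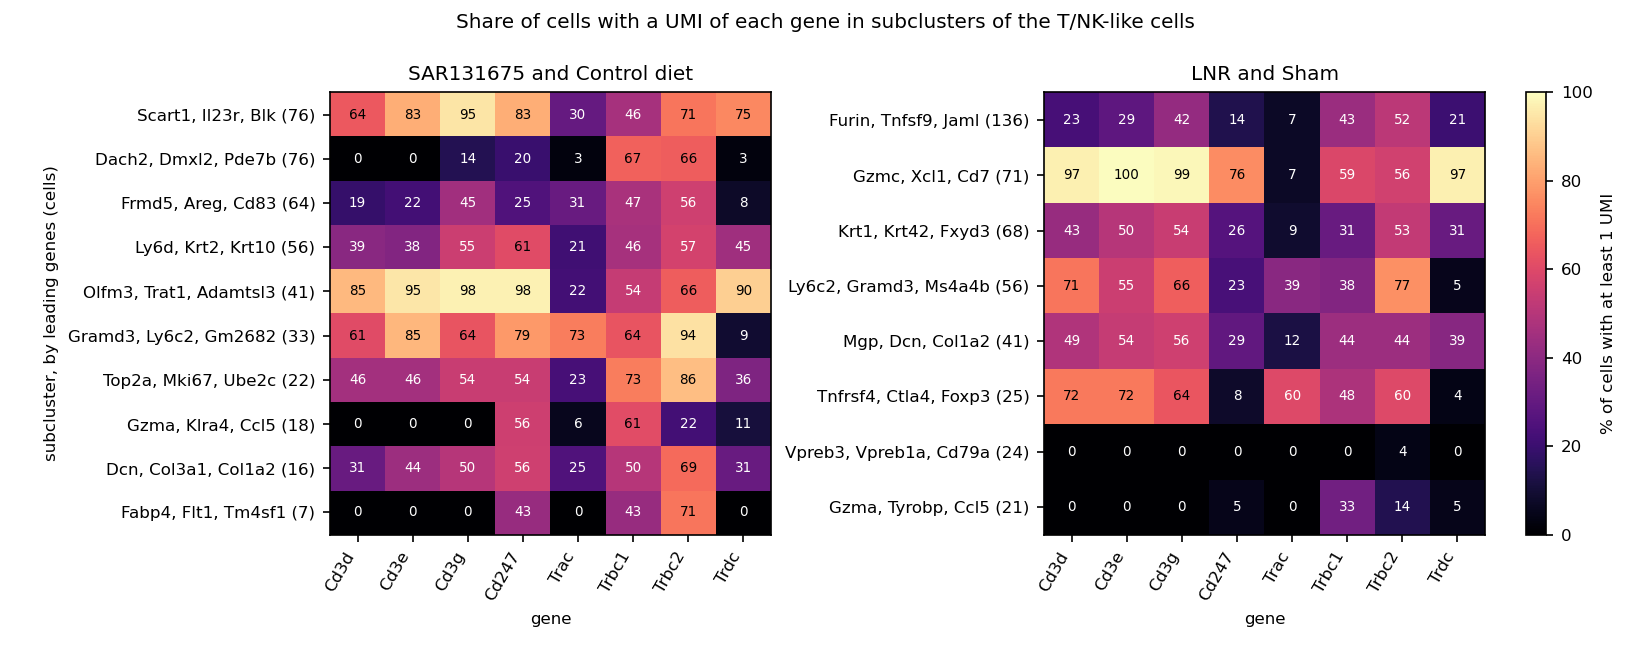
Squares give the percent of cells with at least 1 UMI of each gene (columns) in subclusters of the T/NK-like cells (rows, named by leading genes other than hemoglobin, with cell numbers), 1 panel per pair of libraries. Rows led by Olfm3 and by Gzmc are bright for the CD3 genes and Trdc, while the rows led by Dach2 and by Gzma are at 0 for Cd3d and Cd3e but not for Trbc1 and Trbc2.

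Trac outside T/NK-like cells. Only 49.5%, 55.0%, 47.4% and 37.6% of Trac UMIs were in the T/NK-like cluster, and the next highest class was the same in all 4 libraries. It was the mural-like class, the pericytes and smooth muscle cells of vessel walls, with 84, 40, 27 and 28 UMIs in 73 of 702, 31 of 488, 26 of 719 and 27 of 607 cells. The level was 15.5 CPM (12.4 to 19.2), 10.7 (7.61 to 14.5), 8.64 (5.69 to 12.6) and 10.3 (6.87 to 14.9), against 0.250, 0.195, 0.324 and 0.272 in the remaining cells outside the T/NK-like cluster. The log2 difference was 5.96, 5.77, 4.74 and 5.25, with a lowest interval bound of 3.99. None of these mural-like cells had a CD3 UMI. Acta2, smooth muscle actin, was found in 100% of them in each library, and the pan-leukocyte gene Ptprc in 2.74%, 3.23%, 0% and 0%. At 1500 UMIs per cell Trac was found in 2.74%, 1.76%, 1.65% and 1.06% of mural-like cells and in 0.0408%, 0.0277%, 0.0625% and 0.0379% of the rest. Most mural-like cells with Trac held 1 UMI (63, 27, 25 and 26 cells).

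Trdc outside T/NK-like cells. In the LNR pair, Trdc was second highest in an unnamed cluster led by Mmp13, Bglap and Ibsp, genes of bone-forming cells. It had 40 UMIs in 12 of 333 cells after LNR (16.3 CPM, 11.6 to 22.2) and 21 UMIs in 5 of 250 sham cells (12.1 CPM, 7.50 to 18.5), with up to 9 and 13 UMIs in a cell. The remaining cells outside the T/NK-like cluster were at 0.272 and 0.284 CPM. None of the 17 cells had a CD3 UMI. In the diet pair the cluster nearest to it by leading genes was led by Cytl1, Ibsp and Ecrg4 and also by Bglap, and had 0 Trdc UMIs in 477 cells with SAR131675 and 1 in 417 with control diet. There 94.4% and 97.5% of Trdc UMIs were T/NK-like.

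Beta constant genes. Trbc2 was the exception among the 8 genes, with 7029, 5446, 2580 and 2692 UMIs of which only 7.80%, 5.77%, 12.6% and 9.14% were in T/NK-like cells. The keratinocyte-like class, the epithelial cells of the epidermis and hair follicle, held 78.8%, 85.6%, 70.3% and 68.9%. Trbc2 was the only member found in 3654, 2866, 1467 and 1647 cells, most of the cells counted at the outset. Its level was nevertheless highest in T/NK-like cells, at 316 CPM (290 to 344), 306 (273 to 341), 372 (333 to 415) and 323 (284 to 366), while the 17564, 15182, 7487 and 8669 keratinocyte-like cells were at 24.2, 24.5, 26.0 and 24.2 CPM. In the other cells Trbc2 was at 8.63, 6.32, 6.12 and 8.09 CPM. The log2 difference between keratinocyte-like and these other cells was 1.49 (1.39 to 1.59), 1.95 (1.82 to 2.09), 2.09 (1.93 to 2.24) and 1.58 (1.44 to 1.71).

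The same order held at equal depth. At 1500 UMIs per cell, Trbc2 was found in 3.09%, 2.93%, 3.18% and 3.04% of keratinocyte-like cells and in 0.825%, 0.812%, 0.516% and 0.627% of the others. Without thinning the shares were 18.2%, 17.7%, 16.3% and 14.8% against 4.86%, 3.11%, 2.41% and 3.59%. Of the 3192, 2684, 1220 and 1283 keratinocyte-like cells with Trbc2, only 12, 8, 4 and 3 had a CD3 UMI. The hair/nail-like class of the diet pair was at 28.5 and 34.3 CPM, and an unnamed cluster of the LNR pair led by the hair keratins Krt25, Krt71 and Krt35 at 30.5 and 34.1.

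Keratinocyte-like clusters did not carry Trbc2 evenly. It ranged from 2.36 to 62.1 CPM over 12 clusters with SAR131675, from 1.5 to 58.6 with control diet, from 12.3 to 48.0 over 8 clusters after LNR and from 10.7 to 49.9 in the sham library. In the diet pair the highest cluster was led by Wfdc17, Serpinb3a and Slurp1, genes of upper epidermal layers, and the lowest by Far2, Soat1 and Scd1, genes of sebaceous lipid synthesis. A cluster led by Lce1 genes, Lor and Flg, of the cornified layer, was at 7.49 and 9.32 CPM. A Defb6, Cst6 and Krt79 cluster was at 48.1 and 46.9 CPM and an Lgr5 and Lhx2 cluster, genes of hair follicle stem cells, at 41.9 and 34.2. In the LNR pair the Lhx2 and Lgr5 cluster was highest, followed by clusters led by Serpinb12 and Slurp2 (45.6 and 44.8) and by Hrnr, Lor and Flg (42.4 and 40.8). The lowest was led by the basal layer keratins Krt14 and Krt5. Clusters of that pair led by Soat1 (0.624 and 3.12 CPM) and by Serpina3b (2.21 and 1.58) were left unnamed and so stand outside this range. Clusters on both sides of Krt1, a keratin of the suprabasal layers, were thus among the highest, with Krt1 at 9929 CPM in the Wfdc17 cluster (SAR131675) and 32.8 in the Lhx2 cluster (LNR).

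**Figure D4:**
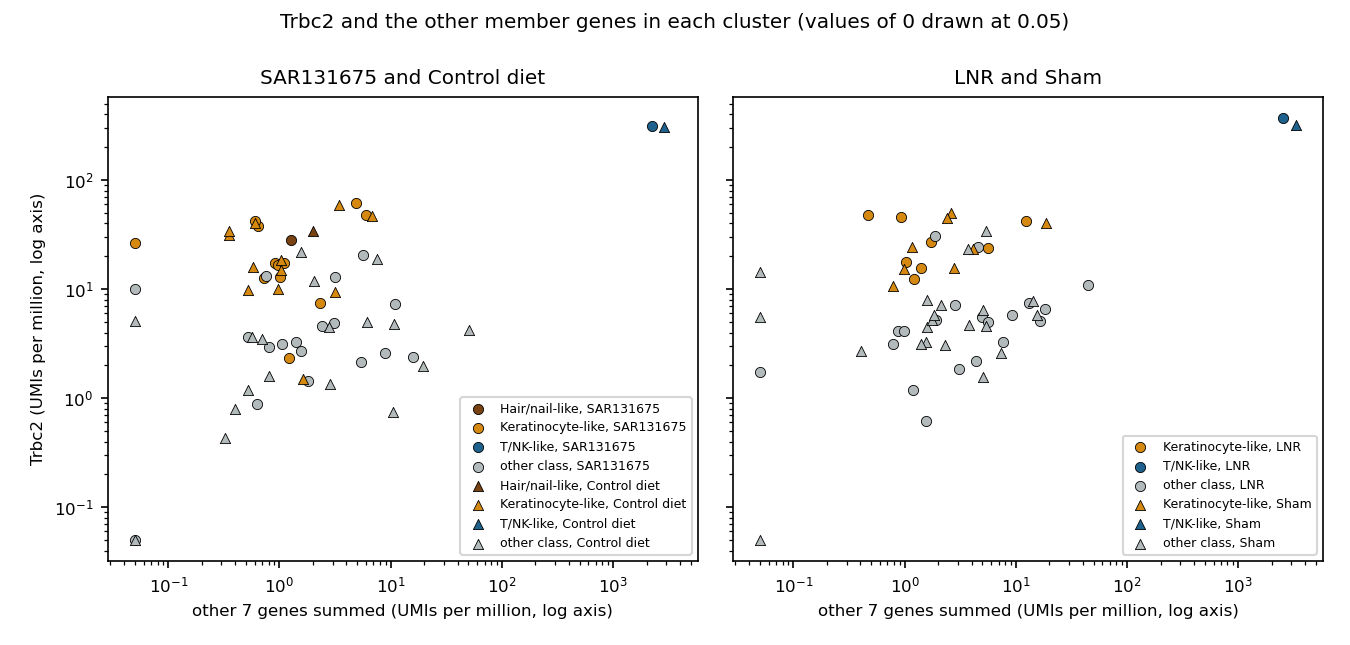
Each point is a cluster in a library (circles for the first library named in the panel title, triangles for the other), with Trbc2 on the vertical and the other 7 genes summed on the horizontal axis, both in CPM on log axes, with 0 drawn at 0.05. T/NK-like points stand apart at the upper right, and keratinocyte-like points reach 62.1 for Trbc2 at low values of the other 7.

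Keratinocyte-like and T/NK-like cells differed in other measures of the locus. Trbc1 made up 33.4%, 45.9%, 40.5% and 41.4% of the beta constant UMIs of T/NK-like cells but 3.09% (2.66 to 3.58), 3.34% (2.85 to 3.88), 4.43% (3.55 to 5.45) and 6.27% (5.24 to 7.43) of those of keratinocyte-like cells as a class. The keratinocyte-like clusters were not even in this. With SAR131675, Trbc1 was at 2.33 CPM beside 7.49 for Trbc2 in the Lce1-led cluster, but at 0.0986 beside 37.9 in the Skint9-led one. The ratio of Trbc2 to Krt1 was 6.93, 6.87, 11.9 and 10.6 UMIs per 1000 in keratinocyte-like cells, 10.2, 8.18, 14 and 12.3 in fibroblast-like cells, and 510, 424, 970 and 497 in T/NK-like cells. Fibroblast-like Trbc2 levels were 1.52, 0.977, 3.39 and 3.83 CPM. No UMI of the Trbj2-1, Trbj2-7 or Trbd2 segments was found in keratinocyte-like cells, and Trbv31, the variable gene beside Trbc2, had 0, 2, 1 and 1. Ephb6, a receptor kinase gene beside the receptor locus, had 8129, 8455, 3267 and 3330 UMIs in keratinocyte-like cells. Its level was 87.9 and 100 CPM in the Wfdc17-led cluster of the diet pair and 14.1 and 13.6 in the Far2-led one. Other clusters did not keep this order. Ephb6 was at 17.2 and 20.2 CPM in the hair/nail-like class, beside 28.5 and 34.3 for Trbc2. It was at 13.5 and 16.3 in the Krt25-led cluster of the LNR pair, beside 30.5 and 34.1. In T/NK-like cells Ephb6 was at 10.4, 12.7, 5.73 and 10.5 CPM. The tables hold no positions of reads, and the part of Ephb6 or of free RNA in the Trbc2 counts was not tested.

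Trbc1 followed T/NK-like cells more closely. It had 513, 448, 327 and 348 UMIs, of which 53.6%, 59.4%, 67.6% and 50% were T/NK-like and 34.5%, 35.9%, 25.7% and 35.6% keratinocyte-like. Its keratinocyte level was 0.773, 0.846, 1.2 and 1.61 CPM, against 159, 259, 253 and 228 in T/NK-like cells. The next class was in each library an unnamed cluster led by Cd74 and H2-Aa, antigen presentation genes, at 6.11, 5.59, 3.38 and 5.02 CPM from 11, 4, 6 and 5 cells.

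By a rule on correlation over the 62 clusters of both pairs, on log2(CPM + 1) and over 18027 genes, the genes most like the sum of the 8 were Cd96, Ctsw and Trat1 (r = 0.75, 0.75 and 0.74), a lymphocyte adhesion receptor, a protease of cytotoxic cells and an adaptor of the receptor. For the 7 genes without Trbc2 they were Ctsw, Il2rb and Trat1 (0.88, 0.87 and 0.87), followed by Cxcr6 at 0.86. For Trbc2 alone they were Gata3 (0.78), Cd5 and Pkp3 (0.76 each), where Pkp3 encodes a desmosome protein of epithelia. Cd5, known as a T cell receptor inhibitor, was found in 8.82% and 4.38% of keratinocyte-like cells of the diet and LNR pairs. Il2rb and Cxcr6 had served to name the T/NK-like cluster. The clusters share libraries, the pairs differ in depth and software, and these correlations are descriptions.

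SAR131675 against control diet. Over all kept cells the 8 genes summed to 34.1 CPM with SAR131675 and 33.5 with control diet (log2 ratio 0.03, -0.01 to 0.07), a sum made mostly of Trbc2. The 3 CD3 genes summed were higher with SAR131675 (6.23 against 5.73 CPM, 0.12, 0.02 to 0.22). No member passed 1.5-fold in either direction, where 4.68% of the 22625 genes with at least 20 UMIs in the pair were that much higher with SAR131675 and 5.01% lower. Trac was higher with SAR131675 (0.975 against 0.760 CPM, log2 ratio 0.36, 0.10 to 0.62), as were Cd3d (0.32, 0.04 to 0.59) and Cd3g (0.17, 0.04 to 0.30). Trdc was lower (2.10 against 2.45 CPM, -0.22, -0.38 to -0.06). The intervals of Cd3e, Cd247, Trbc1 and Trbc2 included 0. Cells with any member were 14.8% (14.4 to 15.2) and 13.9% (13.5 to 14.3) of kept cells.

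Within T/NK-like cells, 2 members were past 1.5-fold, and both calls were lost without mixed cells. Trbc1 was at 159 CPM with SAR131675 and 259 with control diet (log2 ratio -0.71, -0.96 to -0.46), and Trdc at 388 and 617 (-0.67, -0.83 to -0.51). In the same cells 12.3% of 10517 genes were at least 1.5-fold higher with SAR131675 and 8.65% lower. The sum of the 8 genes was lower with SAR131675 (2567 against 3189 CPM, -0.31, -0.38 to -0.25). Scrublet called 41 of the 243 SAR131675 cells doublets but 1 of the 166 control diet cells. Without them the sum was 0.04 (-0.03 to 0.10), Trbc1 was -0.39 (-0.65 to -0.13) and Trdc -0.33 (-0.49 to -0.16), where 7.83% of 9633 genes were past 1.5-fold higher and 11.5% lower. Without the subclusters led by other cell types' genes the values were -0.09, -0.44 and -0.35, with 7.84% of 8583 genes higher and 9.25% lower. Trdc and Trbc1 were lower with SAR131675 in both settings, under 1.5-fold. Trbc2 was higher (0.33, 0.12 to 0.54) without doublets, but its interval included 0 without those subclusters (0.20, -0.02 to 0.42). Doublet removal took cells almost only from the SAR131675 library, so here and below it changed the libraries of this pair unequally.

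LNR against sham. Over all kept cells the 8 genes summed to 36.8 CPM after LNR and 37.8 in the sham library (log2 ratio -0.04, -0.09 to 0.01). No member passed 1.5-fold, where 4.00% of 19200 genes were that much higher after LNR and 2.59% lower. Trac was higher after LNR (137 against 109 UMIs, 0.959 against 0.724 CPM, log2 ratio 0.41, 0.03 to 0.78), and the intervals of the other 7 genes included 0. The 3 CD3 genes summed were lower (11.1 against 12.1 CPM, -0.12, -0.22 to -0.03). Cells with any member were 9.5% (9.09 to 9.91) and 10.2% (9.83 to 10.7), a log2 ratio of -0.11, which was 0.06 for cells with at least 2 UMIs and 0.02 for the CD3 genes only. An unnamed cluster led by the hair and nail keratins Krt36 and Krt84 held 384 sham cells, 110 of them with Trbc2, but 3 LNR cells. Without it the shares were 9.49% and 9.82%, and the interval of the ratio included 0 (-0.05, -0.14 to 0.04).

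Within T/NK-like cells the CD3 chains and Trdc were lower after LNR than in the sham library. Cd3d was at 352 and 492 CPM (log2 ratio -0.48, -0.71 to -0.26), Cd3e at 474 and 661 (-0.48, -0.67 to -0.29), Cd3g at 805 and 1108 (-0.46, -0.61 to -0.31) and Trdc at 446 and 643 (-0.53, -0.72 to -0.33). Cd247 was at 101 and 134 CPM, with an interval that included 0 (-0.41, -0.84 to 0.02). Trac (0.47, -0.12 to 1.07), Trbc1 (0.15, -0.14 to 0.44) and Trbc2 (0.21, -0.04 to 0.45) were not lower, and their intervals included 0. None passed 1.5-fold, with 9.19% of 7684 genes that much higher after LNR and 10.0% lower. Without the subclusters led by other cell types' genes, which hold 57 LNR and 76 sham cells, Trdc was at -0.76 (-0.98 to -0.54) and Trac at 0.79 (0.11 to 1.51), both past 1.5-fold where 11.5% of 4175 genes were lower and 11.1% higher. Trac then rested on 63 and 26 UMIs. Without Scrublet doublets Cd3e (-0.59) and Trdc (-0.63) were past it, with 9.85% of 6342 genes higher and 11.3% lower. The share of cells with Trdc had overlapping intervals in the 2 libraries, as given above.

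**Figure D5:**
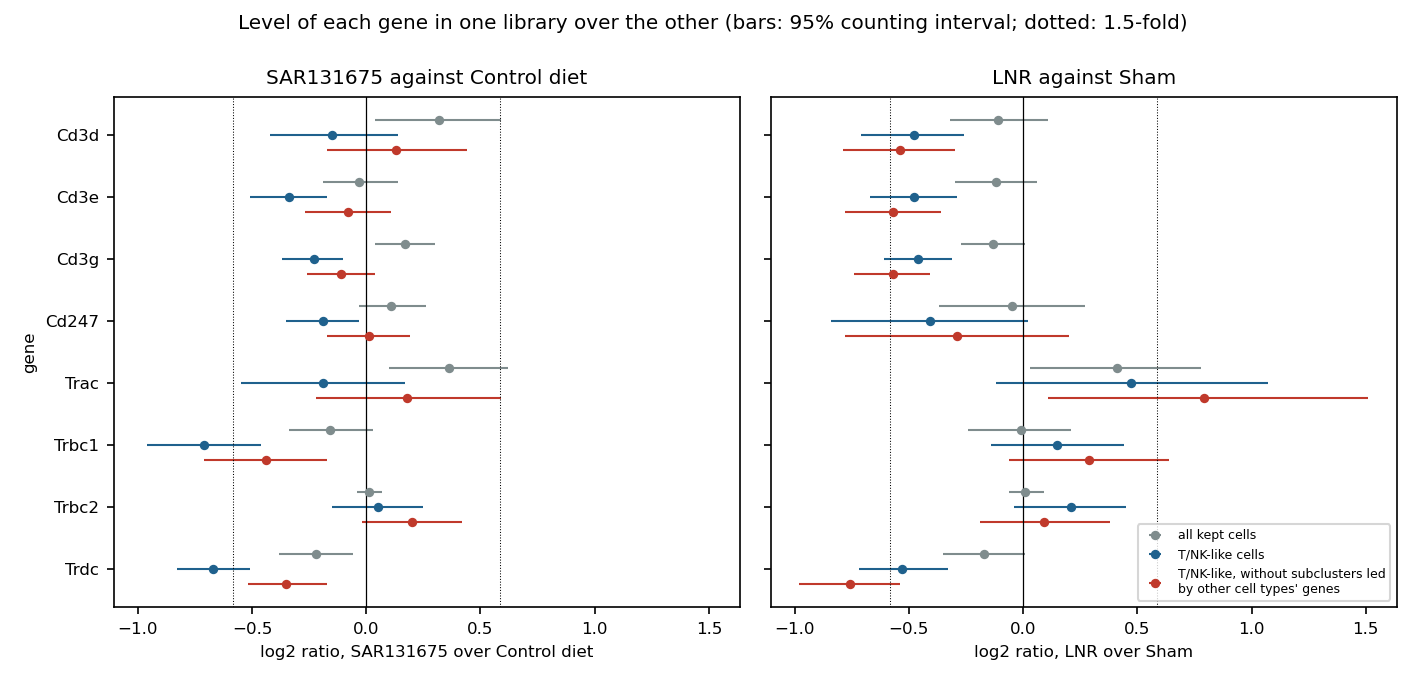
Points give the log2 ratio of each gene's level in the first library over the second, with 95% counting intervals, in all kept cells, in T/NK-like cells and in T/NK-like cells without subclusters led by other cell types' genes, and dotted lines mark 1.5-fold. In the LNR panel the CD3 genes and Trdc lie left of 0 in T/NK-like cells while Trac lies right of it, and in the SAR131675 panel Trbc1 and Trdc lie nearer to 0 without the subclusters led by other cell types' genes.

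Other genes of the pathway were counted the same way, beside the shares of all genes given above for the same cells. A gene past 1.5-fold could still have an interval that included 0, as Ncr1 and Cd6 did over all kept cells with SAR131675. In T/NK-like cells 12.3% of all genes were higher with SAR131675 and 8.65% lower. Of 20 proximal signaling genes, 2 were past 1.5-fold in T/NK-like cells in each direction with SAR131675, Ubash3a and Cd5 higher and the adaptor Grap2 and the kinase Prkcq lower (median log2 ratio -0.19, against -0.01 over all genes). The interval of Ubash3a included 0 (-0.04 to 2.19). Without doublets 3 were higher and none lower (median 0.11), and without the subclusters led by other cell types' genes 3 were higher and 1, Prkcq, lower (median -0.09). Cd5, with 50 UMIs against 16 in all T/NK-like cells (0.89, 0.05 to 1.80), was at 1.19 and 1.23 in these settings, and Grap2 at -0.25 and -0.39. After LNR, of 18 with enough UMIs, Lcp2 and Cd5 were higher, and Themis and Rhoh were among the genes lower (median 0.06, against -0.00). The intervals of Cd5 (-0.06 to 1.93) and Themis (-1.90 to 0.45) included 0, and without those subclusters only Cd5 was higher and Rhoh lower. Over all kept cells Ubash3a and Cd6 were higher with SAR131675 and Cd6 after LNR, and none was lower. None of the measured coreceptors passed in either pair or population.

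Of the 182 other receptor genes, 7 had enough UMIs in the diet pair and 6 in the LNR pair. Trgc2 and Trgv1 were lower with SAR131675 in T/NK-like cells, Trgv1 with an interval that included 0, and without doublets neither was past 1.5-fold, while Trgc2 was (-0.69) without the subclusters led by other cell types' genes. Trdv4 was lower after LNR, with 143 UMIs against 250 in T/NK-like cells (164 against 328 CPM, log2 ratio -1.0, -1.31 to -0.70), the direction of Trdc, of the same chain. Trdv4 was at -1.04 without doublets and -1.14 without the subclusters led by other cell types' genes. The gamma chain genes had intervals that included 0 in T/NK-like cells. Trgc1 had 137 UMIs against 134 (-0.16, -0.52 to 0.19), and Trgc2 was at -0.57, Trgv2 at -0.53, Trgv5 at -0.44 and Trgc4 at 0.07. Trgv2 was past 1.5-fold lower in both of the other settings and Trgc2 without doublets. Of the 12 gamma delta and type 17 genes found, Il17a and Il17f, cytokines of type 17 cells, were higher with SAR131675 in T/NK-like cells and Sox13, Blk and Trgc2 lower. The interval of Sox13 included 0 (-1.21 to 0.00), and without doublets Sox13 was the only one of the 3 still past 1.5-fold. Il17a had 51 UMIs against 8 (log2 ratio 1.92, 0.83 to 3.20) and was at 2.37 without doublets, and Il17f 16 against 5, with an interval that included 0 (-0.59 to 2.73). Il17f was higher after LNR, with 49 UMIs against 6 (2.83, 1.61 to 4.35), and Blk and Trdv4 lower, Blk with an interval that included 0 (-2.32 to 0.15). Il17f rested on 25 UMIs against 1 without the subclusters led by other cell types' genes. Over all kept cells Il17a and Il17f were again higher with SAR131675, and after LNR Il17f was higher and Trdv4 lower.

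Of 11 NK and innate lymphoid genes, 6 were past 1.5-fold higher after LNR over all kept cells (Ncr1, Klrb1c, Eomes, Tbx21, Gzma and Il1rl1) and none lower, where 4.00% of all genes were higher, with a median log2 ratio of 0.61 against 0.02 over all genes. The intervals of Ncr1, Klrb1c, Eomes and Tbx21 included 0, on 8 to 25 UMIs a library. Il1rl1, the receptor for IL-33, lay mostly elsewhere, with 24 of 1020 and 15 of 702 UMIs in T/NK-like cells, 367 and 208 in mast-like cells (229 and 164 cells) and 389 and 261 in the Mmp13-led cluster. In T/NK-like cells 4 of 10 were higher (Klrb1c, Eomes, Gzma and Tyrobp), with Gzma, a granzyme of cytotoxic cells, at 401 against 169 CPM (1.24, 0.95 to 1.55). The subcluster led by Gzma and Klra genes held 15 of the LNR cells and 6 of the sham cells, 6.47% and 2.80% of T/NK-like cells. Without doublets 3 of 9 were higher (Klrb1c, Gzma and Tyrobp) and 1, Klrk1, lower. Without the subclusters led by other cell types' genes 2 of 8 were higher and 2 lower, and Gzma was at 571 against 410 CPM (0.48, 0.14 to 0.82), under 1.5-fold. Of 8 regulatory and activation genes, 5 were higher over all kept cells, including Foxp3 with 22 UMIs against 7 (1.73, 0.45 to 3.20), with a median of 0.61. In T/NK-like cells Foxp3 and Ctla4 were higher and Tnfsf11 lower of 7 genes, Ctla4 and Tnfsf11 with intervals that included 0. Foxp3 rested there on 20 UMIs against 2. Without doublets Foxp3 was still past 1.5-fold higher, the only 1 of 7 genes, and Tnfsf11 lower. Without the subclusters led by other cell types' genes Foxp3 had fewer than 20 UMIs in the pair and was not counted. In that setting Ctla4 was under 1.5-fold. With SAR131675, Ncr1 and Eomes were higher over all kept cells, and in T/NK-like cells Eomes and Il1rl1 were higher and Gzma and Fcer1g lower of 11 genes (median -0.26). Without doublets Ncr1, Eomes and Il1rl1 were higher and none lower (median 0.16), and without the subclusters led by other cell types' genes Il1rl1 was higher and Gzma lower (-0.65, -0.95 to -0.35). Icos was higher and Foxp3 lower over all kept cells with SAR131675, and in T/NK-like cells Foxp3 and Pdcd1 were lower, Foxp3 on 9 UMIs against 12, and the intervals of both included 0. Without doublets Icos was higher (0.84, 0.60 to 1.09) and Foxp3 the only one lower, and without the subclusters led by other cell types' genes Icos (0.81, 0.55 to 1.08) and Ctla4 (0.77, 0.10 to 1.48) were higher and none lower.

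Tnfsf11, which encodes the osteoclast factor RANKL, was among the regulatory and activation genes. It was found in 31.2%, 31.2%, 11.7% and 11.4% of T/NK-like cells with Trdc, in 38.7%, 23.7%, 2.63% and 8.00% of those with Trac and in 15.7%, 19.4%, 4.00% and 4.05% of those without CD3. Cells outside the cluster with Trbc2 as the only member held it in 0.796%, 0.315%, 0.688% and 0.917%. Over all kept cells Tnfsf11 had 501 UMIs after LNR against 289 in the sham library (log2 ratio 0.87, 0.66 to 1.08), of which 19 and 27 were in T/NK-like cells (21.8 and 35.4 CPM, -0.70, -1.63 to 0.20). With SAR131675 it had 467 against 278 (0.39, 0.18 to 0.61), of which 144 and 122 were T/NK-like. In those cells its level was lower with SAR131675, at 83.0 and 119 CPM (-0.52, -0.87 to -0.16), and the interval included 0 without doublets (-0.24, -0.62 to 0.13).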

How the data were processed

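Single-cell suspensions of pooled digits were run on 10x Genomics 3' v3 chemistry. The authors deposited gene-by-barcode matrices of UMI counts, not normalized, made with Cell Ranger on GRCm39 per the labels (headers: 6.1.2 and 8.0.1). Total UMIs were 585284877 (SAR131675), 448276501 (control diet), 168507188 (LNR) and 175998346 (sham). No column was left unmapped.

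Barcodes with 200 to 5500 genes, at most 30000 UMIs and at most 10% mitochondrial UMIs were kept, the limits the study states for the LNR experiment. Each pair of libraries was clustered together with scanpy 1.11.5 (2000 variable genes, 30 components, 20 neighbors, Leiden resolution 0.7 with leidenalg 0.10.2), without the 8 genes and every receptor segment. Clusters were named from marker lists without the members. Immunoglobulin segments were left out of the leading genes that decide names, a choice made after seeing the data. T/NK-like cells were clustered again (1000 genes, 15 components, 15 neighbors). Scrublet called 4.55%, 1.01%, 6.00% and 8.12% of kept cells doublets where 23.3%, 19.2%, 15.9% and 16.5% would be expected at 0.8% per 1000 cells, so doublets remained and were not removed in the values reported.

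Intervals are exact Poisson, Clopper-Pearson or conditional 95% intervals (scipy 1.17.1, Python 3.11.15). PCR copies and cells of 1 library are not independent replicates, so these cover counting error only, and a count of 0 allows up to 3 counts. No p-value was computed. A gene was counted as past 1.5-fold where the pair held at least 20 UMIs. On simulated counts, 97.5% and 96.9% of genes changed 2-fold were past it in the diet and LNR pairs and 3.05% and 3.15% of unchanged genes. These were Poisson counts at the summed depth of all kept cells, without variation between cells or libraries. They do not give the rate of such calls in T/NK-like cells, which held far fewer UMIs. Genes named in the text are the members, the fixed lists, the 10 genes most like them over clusters (at least 200 UMIs) and leading genes of clusters. Cell type markers, Ephb6 and receptor segments near Trbc2 are named too. The members and lists were chosen with earlier results of these data known. Alternatives were other limits on cells, doublet removal, thinning, other resolutions, each library clustered alone, other sets of the 8 genes or of cells and a lower UMI minimum. Some genes of the fixed lists are not reported here.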

Additional observations from a re-analysis of the deposited data

Results flagged for a closer look

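Trbc2 RNA was also present in barcodes outside the cell limits, which no comparison above used. Those barcodes held 48.8% of Trbc2 UMIs with SAR131675 and 48.7% with control diet. After LNR they held 16.5%, and 18.2% for sham. Of the UMIs of all genes, those barcodes held 42.0%, 40.7%, 15.2% and 14.4% in the same order. The other 7 genes had 18.2% to 35.5% of their UMIs there with SAR131675 and 3.25% to 12.6% for sham.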

How the results depend on the processing

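Of 88 alternative values, 49 moved by less than the counting interval, 36 moved further and 3 reversed. No paired analysis was possible because each condition had 1 library and the labels' replicate numbers pair nothing. Values in brackets are those reported. The share of cells with a member, SAR131675 against control diet (0.09 as a log2 ratio), was 0.24 for the CD3 genes only, 0.20 for the 7 genes without Trbc2 and 0.35 outside keratinocyte-like and hair/nail-like cells. For LNR against sham (-0.11) it reversed to 0.06 for at least 2 UMIs and to 0.02 for the CD3 genes only, and was -0.34 outside keratinocyte-like cells (-0.13 there without the Krt36-led cluster of sham cells). The summed level over kept cells was -0.01 without upper limits on cells, -0.02 without Scrublet doublets and 0.07 outside keratinocyte-like cells for the diet pair (0.03, with an interval that includes 0) and -0.13 outside them for the LNR pair (-0.04), or -0.18 without the Krt36-led cluster too. In T/NK-like cells the diet value (-0.31) reversed to 0.04 without doublets and was -0.09 without subclusters led by other cell types. Nearly all of those doublets were SAR131675 cells. The LNR value (-0.34) was -0.42 without doublets, -0.43 without those subclusters, -0.21 without upper limits on cells and -0.26 with libraries clustered alone.

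The share of members' UMIs in T/NK-like cells (38.4%, 36.8%, 47.8% and 48.7%) was 85.5%, 85.4%, 81.7% and 84.2% without Trbc2, 36.4% in SAR131675 without doublets, and 43.5% (LNR) and 44.7% (sham) without upper limits. Trdc as a share of Trac, Trbc1, Trbc2 and Trdc UMIs (8.30%, 9.64%, 13.3% and 14.9%) was 40.5%, 47.8%, 38.9% and 51.5% within T/NK-like cells and 60.5%, 62.7%, 57.6% and 69.5% there without Trbc2. It was 5.83% (SAR131675), 6.42% (control diet) and 13.0% (sham) without upper limits and 7.72% (SAR131675) without doublets. At a minimum of 5 UMIs the share of all genes past 1.5-fold was 7.53% higher and 7.73% lower in the diet pair, and 7.59% and 5.80% in the LNR pair. Apart from settings that change genes or cells by construction, the cause was not tested. No T/NK-like cluster was found in the diet pair without upper limits, in the control diet library clustered alone or in the LNR pair at resolution 0.4, so those values are not given. The alternatives without Trbc2, without mixed subclusters, without the Krt36-led cluster and without shared barcodes, and all list values without doublets or mixed subclusters, were chosen after seeing the data.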
